A study of Homo sapiens with 18 samples.

Results

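The BCL2 family decides at the mitochondrial outer membrane whether a cell under stress lives or dies, and 10 of its genes were followed here among the 23411 gene symbols counted. They were taken by symbol and fall into the 3 classes of the family. BCL2, BCL2L1 (BCL-XL) and MCL1 are survival proteins, BAX and BAK1 are the effectors that open the outer membrane, and BMF, BBC3 (PUMA), PMAIP1 (NOXA), BCL2L11 (BIM) and BID are death-promoting proteins of the BH3-only class. As background, survival proteins hold effectors and BH3-only proteins in check by binding them. BH3-only genes and BAX are known to be regulated at the mRNA level by stress-responsive transcription factors, whereas the activity of several members also depends on modification, cleavage or turnover of the protein, which mRNA counts do not show.

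mRNA was sequenced from ARPE-19 cells, a human retinal pigment epithelium line that arose spontaneously in culture, in 18 libraries with 3 replicates in each of 6 groups. Control cells were transduced with a Cas9 vector that lacks a guide RNA, and NRF2 ΔC cells came from 1 clone whose NFE2L2 gene, which encodes the transcription factor NRF2, was edited with Cas9 in its last exon, with stop codons at positions 503 and 505 of its alleles. Cells of either line received water as untreated cells, 1 mM NACET (the ethyl ester of N-acetylcysteine) or 0.2 mM H2O2. The study's methods give 8 h of treatment after 40 h in 10 % serum, but the protocol in the labels has a treatment of 2 h that followed 22 h in 1 % serum, and which of these applies was not resolved. The comparisons ask how the antioxidant, the oxidant and the edited transcription factor change the mRNA of family members. Since NRF2 ΔC cells are a single clone, the edit and the choice of clone cannot be told apart.

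From 16673306 to 25951154 reads per library were counted on genes, and no member was at 0 in any library. The lowest member count was 46 reads, for PMAIP1. Among the markers of the labelled cell type, MITF (64.9 to 187 CPM), OTX2, KRT8 and KRT18 were expressed in every library, whereas RPE65, TTR, TYR, DCT and RLBP1 stayed at or under 0.501 CPM. Defining markers of endothelium (PECAM1, CDH5), leukocytes (PTPRC, CD3E) and photoreceptors (CRX) were at or under 0.145 CPM, while CD68, a lysosomal gene of the leukocyte list, was at 78.5 to 145 CPM. Of the other genes on the endothelium and photoreceptor lists, VWF reached 1.51, KDR 0.978, NRL 0.975 and PDE6B 6.86 CPM. Of the 5 mesenchyme markers, VIM lay between 4185 and 6802 CPM, FN1 between 192 and 743, ACTA2 between 54.2 and 183 and COL1A1 between 27.0 and 174. COL1A2 was at 0 in 17 libraries and at most 0.0482 CPM. The summed level of the 15 retinal pigment epithelium markers was 1352 to 1406 CPM in untreated, 1129 to 1278 in NACET-treated and 970 to 1044 in H2O2-treated control libraries, and 1312 to 1433, 1129 to 1336 and 977 to 1081 CPM in those of NRF2 ΔC cells. KRT8 and KRT18, with medians of 545 and 405 CPM over the 18 libraries, made up most of this sum. The summed level of the mesenchyme markers was 6371 to 7327, 5305 to 6931 and 4833 to 5841 CPM in control cells, in the same order. In NRF2 ΔC cells it was 7052 to 7378, 6429 to 7350 and 5505 to 6708 CPM. VIM, with a median of 5849 CPM over the 18 libraries, made up most of this sum. The part of either sum in the treatment results was not tested. In bulk libraries a change in every cell and a change in some of the cells cannot be told apart. NFE2L2 mRNA ranged from 102 to 152 CPM and was a DEG in no pair of groups, but a count over the whole gene does not check an edit in its last exon. Levels are given as CPM, read counts normalized to the size and composition of each library. A differentially expressed gene (DEG) had an adjusted p under 0.05 by edgeR's quasi-likelihood test and a size of at least 0.6 on the log2 scale, with adjustment over all genes tested. The labels do not say whether replicates came from separate cultures, so p-values measure the spread between these libraries.

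For the members whose mRNA moved most, and for BAX, the 250 bases before the RefSeq start are shown, read 5′ to 3′ on the strand of the gene. The letters come from RefSeq promoters of GRCh38.p14, and each matched the hg19 genome at 1 place, which gives the positions. Capitals mark matches to the E-box (CACGTG), the AP-1 site (TGANTCA) or the antioxidant response element (TGACNNNGC), which NRF2 binds.
BMF, chr15:40401081-40401330, minus strand: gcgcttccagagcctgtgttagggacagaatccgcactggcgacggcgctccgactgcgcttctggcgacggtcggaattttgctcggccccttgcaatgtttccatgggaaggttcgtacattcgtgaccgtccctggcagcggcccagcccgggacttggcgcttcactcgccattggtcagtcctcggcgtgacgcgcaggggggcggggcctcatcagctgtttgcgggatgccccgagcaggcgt
BBC3, chr19:47735925-47736174, minus strand: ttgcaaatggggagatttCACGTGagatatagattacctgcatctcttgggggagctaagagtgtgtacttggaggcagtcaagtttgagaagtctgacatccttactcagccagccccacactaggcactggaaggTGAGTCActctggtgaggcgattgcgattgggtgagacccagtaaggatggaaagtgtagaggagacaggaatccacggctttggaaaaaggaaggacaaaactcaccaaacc
PMAIP1, chr18:57566978-57567227, plus strand: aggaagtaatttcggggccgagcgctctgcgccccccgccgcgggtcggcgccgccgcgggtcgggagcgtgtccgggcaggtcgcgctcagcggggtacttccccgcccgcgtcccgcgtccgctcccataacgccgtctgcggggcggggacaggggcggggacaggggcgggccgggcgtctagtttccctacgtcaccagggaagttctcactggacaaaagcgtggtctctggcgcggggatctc
BAX, chr19:49457882-49458131, plus strand: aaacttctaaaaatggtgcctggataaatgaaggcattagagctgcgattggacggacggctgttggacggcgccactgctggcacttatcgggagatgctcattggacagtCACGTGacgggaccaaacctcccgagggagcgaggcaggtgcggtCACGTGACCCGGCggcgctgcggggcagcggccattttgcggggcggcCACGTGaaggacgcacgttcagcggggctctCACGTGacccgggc

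Promoters were found for 9 of the 10 members, the exception being MCL1. The BAX window held 4 E-boxes and 1 antioxidant response element, which overlaps an E-box. The BBC3 window held an E-box 232 bases and an AP-1 site 113 bases before the start, although this start lies 1468 bases from the start of the canonical GENCODE transcript. The BMF and PMAIP1 windows held no match to a motif searched on both strands. Of the other members, BCL2L11 had a forkhead site (GTAAACA) 223 bases before its start and BID an E-box in alternative windows. The CHOP-ATF4 composite (TGATGNAA) and the cAMP response element (TGACGTNA) were in no member window. Among 35116 promoter windows of this length, 6.34 % held the E-box, 6.57 % the AP-1 site, 10.9 % the antioxidant response element and 2.98 % the forkhead site. These matches describe letters and do not show binding.

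Per kilobase of canonical transcript, untreated control cells held most BAX mRNA among the members (173 ± 15.0 CPM per kb, SD, n = 3), followed by BCL2L1 (113 ± 8.01) and MCL1 (54.3 ± 1.23). BID (14.5 ± 1.51) and BBC3 (12.1 ± 1.24) formed the next pair, and BAK1 (5.53 ± 0.337) and BMF (4.10 ± 0.214) came below them. BCL2L11 (2.12 ± 0.0728), PMAIP1 (1.48 ± 0.238) and BCL2 (1.47 ± 0.0642) were lowest, and the means of the last pair differed by less than their SDs. Dividing by all annotated exon bases instead put BCL2L1 (69.3) above BAX (53.3), so the order of these genes depended on the length used. BBC3 stood directly behind MCL1 in untreated NRF2 ΔC cells (15.3 ± 1.50 CPM per kb) and in H2O2-treated cells of either line (20.7 ± 3.86 in control and 44.8 ± 12.2 in NRF2 ΔC cells). BID lay within 1 SD of BBC3 in untreated NRF2 ΔC (14.5 ± 2.03) and H2O2-treated control cells (18.3 ± 0.540). In H2O2-treated NRF2 ΔC cells BID had 23.3 ± 2.93 CPM per kb.

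The plot of member levels by library shows the 10 genes in all 6 groups. MCL1 was a DEG in none of the 9 pairs of groups, in which 1.39 to 9.81 % of all genes were DEGs.

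In control cells NACET lowered the BH3-only genes BMF and BBC3 and raised another, PMAIP1, which made 3 of 10 members DEGs against 2.75 % of all genes tested. H2O2 in control cells raised BCL2L11, BBC3 and PMAIP1 and lowered BMF, 4 of 10 members against 6.33 % of all genes. In NRF2 ΔC cells H2O2 raised BBC3, PMAIP1, BID, BAK1 and BCL2L1 and lowered BMF, 6 of 10 members against 9.81 %. Replicate 1 of these H2O2-treated cells stood apart from replicates 2 and 3 for several members, and without it 8 members were DEGs, against 18.8 % of all genes in the same fit. NACET in NRF2 ΔC cells made no member a DEG, where 1.39 % of all genes were. Still, 5 members there had an unadjusted p under 0.05 (18.6 % of all genes), and DESeq2 called 2 (3.14 % of all genes). Blocked by replicate number, the fit called BMF, BBC3 and PMAIP1, 3 of 10 members against 8.82 % of all genes. The median size of the members' log2 fold changes in control cells was 0.31 under NACET and 0.40 under H2O2, and for NRF2 ΔC cells it was 0.34 and 0.68. Over all genes tested the same medians were 0.17, 0.21, 0.19 and 0.29. The treatments of a line share its untreated libraries, so their values are given side by side and not as separate evidence.

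Groups did not overlap for 8 of 10 members with NACET in control cells, where 26.5 % of all genes did not overlap. The count was 8 of 10 with H2O2 in control cells (35.0 % of all genes), 6 of 10 with NACET in NRF2 ΔC cells (25.0 %) and 9 of 10 with H2O2 in NRF2 ΔC cells (34.1 %). With H2O2 in NRF2 ΔC cells, MCL1 alone overlapped. For H2O2 against NACET the count was 5 of 10 in control (29.1 %) and 6 of 10 in NRF2 ΔC cells (32.0 %). Between the lines it was 5 of 10 in untreated cells (18.6 %), 3 of 10 with NACET (24.5 %) and 5 of 10 with H2O2 (27.7 %).

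**Figure D1:**
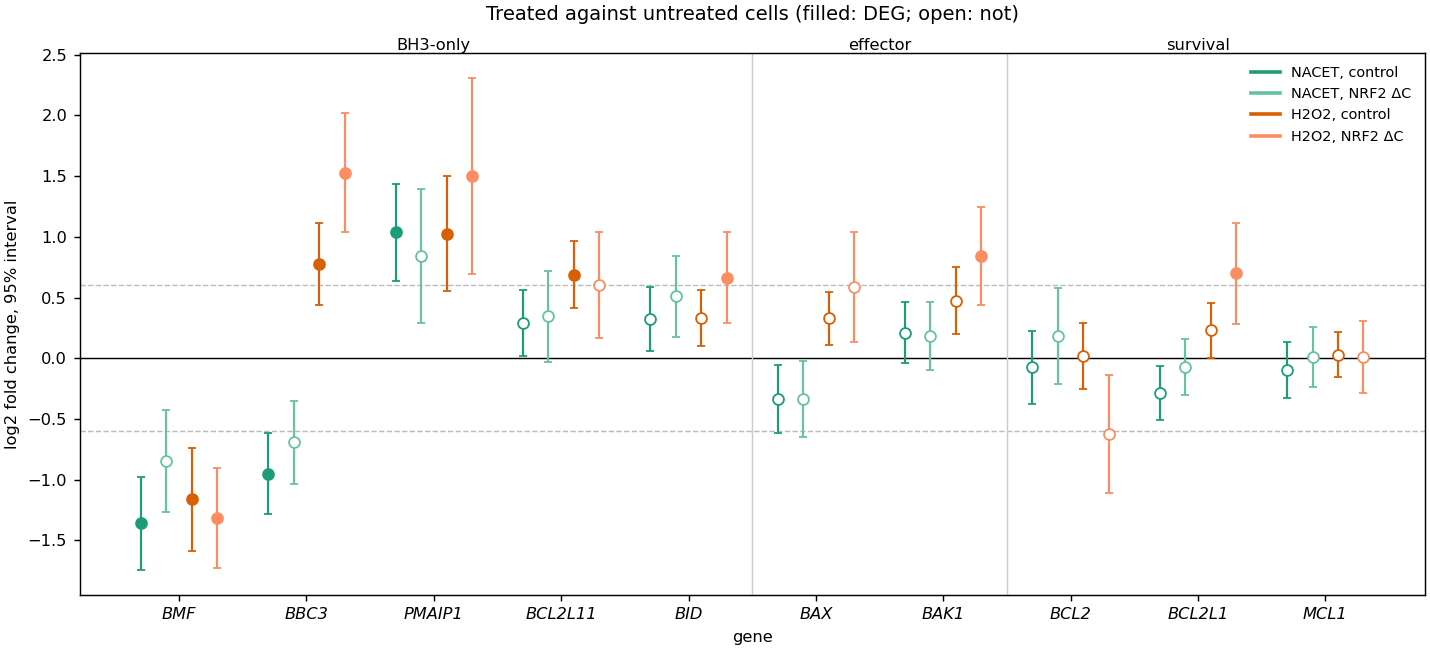
Log2 fold change against untreated cells of the same line, with its 95 % interval, for the 10 members under NACET (greens) and H2O2 (oranges), with 3 libraries in each group. Filled points are DEGs, and dashed lines mark a log2 fold change of 0.6 in size. BMF lies below 0 under both treatments, BBC3 lies below 0 with NACET and above 0 with H2O2, and PMAIP1 lies above 0 under both.

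BMF (chr15:40380091-40401093) encodes a BH3-only protein tied to the cytoskeleton and set free by loss of attachment and other stress. Control libraries held 20.2, 19.4 and 18.2 CPM when untreated, 8.26, 5.61 and 8.40 with NACET and 8.42, 6.44 and 10.9 with H2O2. In NRF2 ΔC cells the libraries held 37.1, 46.8 and 30.6 CPM when untreated, 21.6, 24.6 and 18.5 with NACET and 14.7, 15.8 and 16.3 with H2O2. Every treated library was below every untreated library of its line. In control cells BMF fell by 1.36 on the log2 scale with NACET (SE 0.17, adjusted p = 0.0117) and by 1.16 with H2O2 (SE 0.19, adjusted p = 0.00840). In NRF2 ΔC cells the log2 fold change was -1.31 (SE 0.18, adjusted p = 0.00537) with H2O2, a DEG, and -0.85 (SE 0.18, adjusted p = 0.0656) with NACET, which was a DEG only when blocked by replicate number (-0.83), with DESeq2 and in 1 fit of all 18 libraries. Leaving out untreated control replicate 1 or 2 ended the call with NACET in control cells (-1.35 to -1.32).

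NRF2 ΔC cells held more BMF mRNA than control cells under all 3 conditions, and every NRF2 ΔC library was above every control library of its condition. The log2 difference was 0.99 (SE 0.16, adjusted p = 0.0116) in untreated cells, 1.50 (SE 0.19, adjusted p = 0.00343) with NACET and 0.85 (SE 0.20, adjusted p = 0.0417) with H2O2. BMF was the only member among the DEGs in untreated cells (1 of 10 members, 3.85 % of all genes) and with NACET (1 of 10, 4.76 %). The call in untreated cells was lost without untreated control replicate 2 (1.00), and that with H2O2 was lost without any one of replicates 1 and 2 of control and replicates 2 and 3 of NRF2 ΔC cells (0.65 to 0.85). BMF and the antisense gene BMF-AS1 share 461 exon bases, 8.46 % of BMF, and without strand their reads cannot be told apart.

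BBC3 (chr19:47724079-47736023) encodes PUMA, a BH3-only protein that binds all the survival proteins. Its mRNA moved in opposite directions with the antioxidant and the oxidant. The control libraries had 22.5, 19.9 and 24.5 CPM when untreated, 10.7, 10.1 and 13.5 with NACET and 31.8, 36.7 and 45.8 with H2O2, so the 3 groups did not overlap. The NRF2 ΔC libraries had 27.4, 31.3 and 26.0 CPM, 15.2, 20.9 and 17.2 CPM and 56.8, 96.6 and 94.8 CPM in the same order, again without overlap. In control cells the log2 fold change was -0.95 (SE 0.15, adjusted p = 0.0202) with NACET and 0.78 (SE 0.15, adjusted p = 0.0160) with H2O2. In NRF2 ΔC cells H2O2 raised BBC3 by 1.53 (SE 0.22, adjusted p = 0.00564), while NACET gave -0.69 (SE 0.15, adjusted p = 0.0656), a DEG when blocked by replicate number (-0.69), with DESeq2 and in 1 fit of all 18 libraries. Within replicate numbers the log2 ratio of NACET to untreated cells for control cells was -1.07, -0.98 and -0.86, and for NRF2 ΔC cells -0.85, -0.58 and -0.60, so all 6 pairs went down. The call with NACET in control cells was lost without any one of replicates 1 and 2 of the untreated or the NACET-treated cells (-1.02 to -0.87), and that with H2O2 was lost without untreated or H2O2-treated control replicate 2 (0.70 to 0.81).

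PMAIP1 (chr18:57567228-57571537) encodes NOXA, a BH3-only protein that binds MCL1 in particular. It had few reads, 46 to 256 per library. Levels in control libraries were 2.31, 3.18 and 2.96 CPM when untreated, 5.57, 5.77 and 5.89 with NACET and 4.48, 6.27 and 6.37 with H2O2. Levels in NRF2 ΔC libraries were 2.24, 3.14 and 3.18, 3.93, 6.32 and 5.43 and 4.98, 13.1 and 6.66 CPM in the same order. Treated libraries lay above untreated ones throughout, and H2O2-treated NRF2 ΔC replicate 2 stood highest. The log2 fold change was 1.04 (SE 0.17, adjusted p = 0.0258) with NACET and 1.03 (SE 0.21, adjusted p = 0.0189) with H2O2 in control cells, and 1.50 (SE 0.36, adjusted p = 0.0307) with H2O2 in NRF2 ΔC cells. With NACET in NRF2 ΔC cells it was 0.84 (SE 0.24, adjusted p = 0.119), a DEG when blocked by replicate number (0.85). The NACET call in control cells was lost without any one of the 3 untreated replicates and NACET-treated replicates 1 and 2 (0.91 to 1.14), and also in 1 fit of all 18 libraries (1.03). The H2O2 call was lost without untreated control replicate 1 or 2 or H2O2-treated control replicate 2 (0.90 to 1.12), and in NRF2 ΔC cells without replicate 2 or 3 of either group (1.01 to 1.64).

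BCL2L11 (chr2:111876955-111926021) encodes BIM, a BH3-only protein that binds every survival protein. Control replicates held 10.4, 11.2 and 10.8 CPM when untreated, 11.8, 13.9 and 13.5 with NACET and 16.6, 19.6 and 15.9 with H2O2. NRF2 ΔC replicates held 11.7, 12.6 and 9.17, 13.2, 16.2 and 13.7 and 16.1, 20.7 and 14.9 CPM. The untreated libraries were lowest in either line. H2O2 raised BCL2L11 by 0.69 (SE 0.12, adjusted p = 0.0114) in control cells, a call lost without H2O2-treated control replicate 2 (0.60). In NRF2 ΔC cells the value with H2O2 was 0.60 (SE 0.19, adjusted p = 0.0762), a DEG when blocked by replicate number (0.60), with DESeq2, in 1 fit of all 18 libraries and without H2O2-treated NRF2 ΔC replicate 1 (0.66). With NACET it was 0.29 (adjusted p = 0.209) in control and 0.35 (adjusted p = 0.306) in NRF2 ΔC cells. BCL2L11 shares 10.8 % of its exon bases with the antisense gene MIR4435-2HG.

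BID (chr22:18216904-18257536) encodes the BH3-only protein that caspase-8 cleaves to link death receptors to mitochondria. Untreated libraries held 29.5, 30.0 and 35.4 CPM in control and 26.4, 34.5 and 33.6 CPM in NRF2 ΔC cells. H2O2-treated libraries held 40.4, 38.4 and 40.5 CPM in control and 43.6, 55.9 and 52.7 CPM in NRF2 ΔC cells, all above the untreated ones of their line. With NACET, control libraries held 38.2, 36.7 and 43.1 CPM and NRF2 ΔC libraries 39.6, 49.4 and 47.6 CPM. BID was a DEG only with H2O2 in NRF2 ΔC cells, at 0.66 (SE 0.16, adjusted p = 0.0348), and this call was lost in 5 of the 6 fits that left out 1 library, all but the fit without H2O2-treated replicate 1 (0.57 to 0.73). In control cells the value was 0.33 (adjusted p = 0.0642) with H2O2 and 0.33 (adjusted p = 0.157) with NACET.

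The effector BAX (chr19:49458072-49465055) was a DEG against untreated cells in neither line. The control line held 135, 127 and 151 CPM when untreated, 97.1, 102 and 126 with NACET and 164, 168 and 185 with H2O2. The edited line held 130.4, 154 and 165, 108, 116 and 136 and 167, 242 and 276 CPM. H2O2-treated libraries lay above untreated ones in either line, while NACET-treated and untreated NRF2 ΔC libraries overlapped. The log2 fold change with NACET was -0.34 (adjusted p = 0.170) in control and -0.34 (adjusted p = 0.234) in NRF2 ΔC cells. With H2O2 it was 0.33 (adjusted p = 0.0570) in control and 0.59 (adjusted p = 0.0890) in NRF2 ΔC cells, and the latter was a DEG in 1 fit of all 18 libraries (0.61) and without H2O2-treated NRF2 ΔC replicate 1 (0.78).

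BAK1 (chr6:33540324-33548070) encodes the effector that sits in the outer membrane of healthy cells. In the control line there were 11.8, 11.4 and 12.8 CPM when untreated, 14.2, 13.5 and 13.6 with NACET and 17.6, 17.7 and 14.7 with H2O2. In the NRF2 ΔC line there were 13.3, 14.7 and 14.2, 17.1, 16.1 and 15.4 and 21.3, 31.6 and 24.1 CPM, and all treated libraries lay above the untreated ones of their line. H2O2 raised BAK1 in NRF2 ΔC cells by 0.84 (SE 0.18, adjusted p = 0.0226), a call lost without replicate 2 or 3 of the untreated or the H2O2-treated cells (0.68 to 0.88). In control cells the value was 0.47 (SE 0.12, adjusted p = 0.0375), past the adjusted p limit and under the fold limit.

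Among the survival genes, BCL2L1 (chr20:30252255-30311792) was a DEG with H2O2 in NRF2 ΔC cells. Values in control cells were 304, 267 and 301 CPM when untreated, 242, 221 and 247 with NACET and 316, 334 and 370.4 with H2O2. Values in NRF2 ΔC cells were 238, 255 and 254, 229.6, 243 and 246 and 302, 459 and 469 CPM. H2O2-treated NRF2 ΔC replicate 1 stood well below replicates 2 and 3, as it did for BBC3 and BAX. The log2 fold change with H2O2 was 0.70 (SE 0.18, adjusted p = 0.0428) in NRF2 ΔC cells, and the call was lost in 5 of the 6 fits that left out 1 library, all but the fit without H2O2-treated replicate 1 (0.59 to 0.72). In control cells it was 0.23 (adjusted p = 0.163) with H2O2 and -0.29 (adjusted p = 0.147) with NACET. The antisense gene ABALON shares 41.3 % of the exon bases of BCL2L1 and is not among the symbols counted, so part of these reads could belong to it and cannot be told apart.

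BCL2 (chr18:60790579-60987361) had the lowest level per kilobase among the members in every group. Control libraries held 9.65, 10.1 and 10.5 CPM when untreated, 8.30, 10.3 and 9.88 with NACET and 9.43, 10.7 and 10.5 with H2O2, which overlap. NRF2 ΔC libraries held 7.46, 10.5 and 9.54, 9.40, 10.8 and 11.5 and 5.55, 5.23 and 7.34 CPM, and the 3 H2O2-treated ones were the lowest of all 18. Against untreated NRF2 ΔC cells the log2 fold change was -0.62 (SE 0.22, adjusted p = 0.0947), a DEG when blocked by replicate number (-0.62).

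MCL1 (chr1:150533371-150552214), which encodes a short-lived survival protein, stayed between 184 and 259 CPM in all 18 libraries. Its log2 fold changes over the 9 pairs of groups ran from -0.09 to 0.17, and the smallest adjusted p was 0.508. With H2O2 it was 0.03 (95 % interval -0.15 to 0.21) in control and 0.01 (95 % interval -0.28 to 0.31) in NRF2 ΔC cells.

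H2O2-treated cells were also set against NACET-treated cells. In control cells 2 of 10 members were DEGs (3.67 % of all genes), BBC3 at 1.71 (SE 0.17, adjusted p = 0.00333) and BAX at 0.65 (SE 0.11, adjusted p = 0.0203). BCL2L1, at 0.50 (SE 0.099, adjusted p = 0.0289) in control cells, was past the adjusted p limit and under the fold limit. In NRF2 ΔC cells 4 of 10 were (8.31 %), of which BBC3 (2.20 (SE 0.24, adjusted p = 0.00396)), BAX (0.90 (SE 0.20, adjusted p = 0.0296)) and BCL2L1 (0.75 (SE 0.18, adjusted p = 0.0387)) were higher with H2O2. BCL2 was lower, at -0.83 (SE 0.19, adjusted p = 0.0341). BAK1, at 0.64 (SE 0.17, adjusted p = 0.0543) in NRF2 ΔC cells, was a DEG when blocked by replicate number (0.62), with DESeq2, in 1 fit of all 18 libraries and without H2O2-treated replicate 1 (0.76). PMAIP1, BMF, BID, BCL2L11 and BAK1, whose values lay on the same side of 0 with either treatment, were DEGs in neither line. In control cells BCL2L11 had 0.39 (95 % interval 0.10 to 0.67, adjusted p = 0.111) and BAK1 0.25 (95 % interval -0.01 to 0.51). For both, every H2O2-treated control library was above every NACET-treated one. In NRF2 ΔC cells the log2 ratios of BCL2L11 within replicate numbers were 0.29, 0.35 and 0.12. For PMAIP1, BMF and BID the values in control cells were -0.02 (95 % interval -0.42 to 0.37), 0.19 (95 % interval -0.35 to 0.73) and -0.01 (95 % interval -0.22 to 0.21). The values in NRF2 ΔC cells were 0.64 (95 % interval -0.20 to 1.48), -0.49 (95 % interval -0.84 to -0.14, adjusted p = 0.0819) and 0.13 (95 % interval -0.20 to 0.47), and every H2O2-treated library was below every NACET-treated one for BMF.

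The BBC3 calls between H2O2 and NACET held without each library in turn, as did those of BMF with H2O2 in either line and of BBC3 with H2O2 in NRF2 ΔC cells. The BAX call in control cells was lost without any library but NACET-treated replicate 3 (0.59 to 0.69), and in NRF2 ΔC cells those of BAX (0.74 to 1.02) and BCL2L1 (0.64 to 0.79) were lost without any library but H2O2-treated replicate 1. That of BCL2 was lost without replicate 1 or 2 of H2O2-treated cells or replicate 2 or 3 of NACET-treated cells (-0.79 to -0.72).

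**Figure D2:**
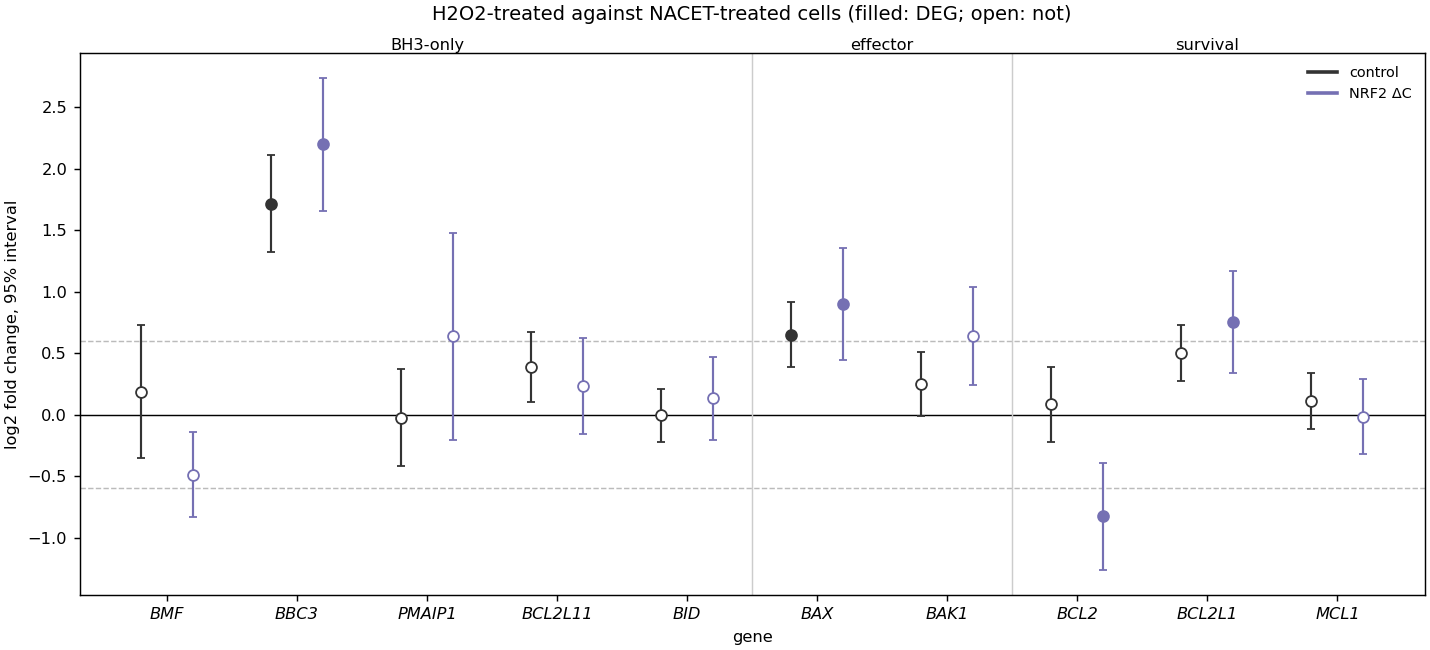
Log2 fold change of H2O2-treated against NACET-treated cells, with its 95 % interval, for the 10 members in control (dark) and NRF2 ΔC cells (violet), with 3 libraries in each group. Filled points are DEGs, and dashed lines mark a log2 fold change of 0.6 in size. BBC3 shows the largest values, 1.71 in control and 2.20 in NRF2 ΔC cells.

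With H2O2, NRF2 ΔC and control cells differed in 3 of 10 members (5.62 % of all genes). BBC3 was higher in NRF2 ΔC cells by 1.10 (SE 0.22, adjusted p = 0.0199) and BMF by the value above, while BCL2 was lower, at -0.77 (SE 0.19, adjusted p = 0.0448). The BBC3 call was lost without any one of replicates 1 and 2 of control and replicates 2 and 3 of NRF2 ΔC cells (0.97 to 1.05). That of BCL2 was lost without any one of the 3 control replicates or NRF2 ΔC replicate 2 (-0.84 to -0.67). BAK1 had 0.61 (adjusted p = 0.0799), and was a DEG with DESeq2, in 1 fit of all 18 libraries and without H2O2-treated NRF2 ΔC replicate 1 (0.73). With NACET, BBC3 had 0.60 (adjusted p = 0.0921), and was a DEG with DESeq2 (0.61) and without NACET-treated NRF2 ΔC replicate 1 (0.70). The summed level of the 6 photoreceptor markers, of which CRX was at 0 in every library, was 4.92 to 8.18 CPM in control and 0.919 to 1.58 CPM in NRF2 ΔC libraries, and its part in these differences was not tested. In untreated cells every member but BMF had a value between -0.23 and 0.34.

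**Figure D3:**
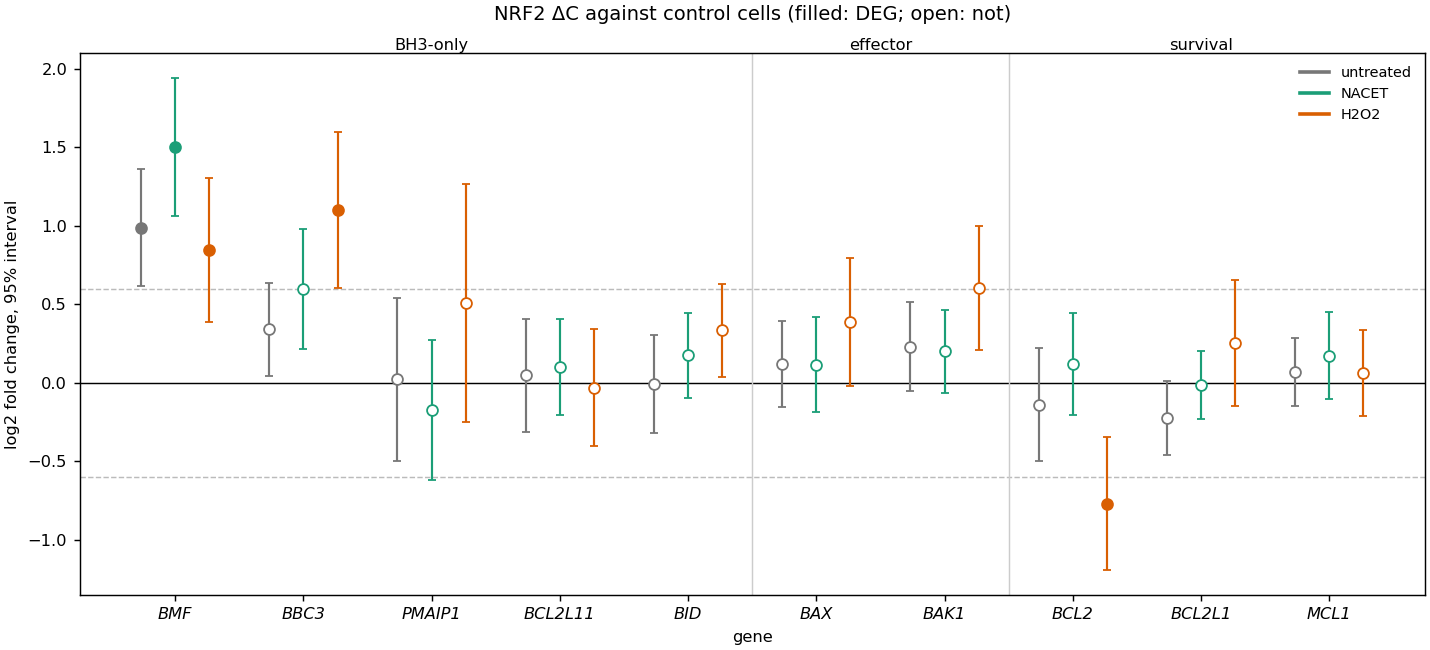
Difference between NRF2 ΔC and control cells on the log2 scale, with its 95 % interval, for the 10 members in untreated (grey), NACET-treated (green) and H2O2-treated cells (orange), with 3 libraries in each group. Filled points are DEGs, and dashed lines mark a log2 fold change of 0.6 in size. BMF is filled in all 3 conditions, and BBC3 and BCL2 with H2O2.

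Whether a response differed between the lines was tested by the interaction over 12 libraries, in which the change of control cells is subtracted from that of the edited cells. No member passed an adjusted p of 0.05 by edgeR for H2O2 (0 of 10 members, 0.0214 % of all genes) or for NACET (0 of 10, 0.0643 %), and DESeq2 called none either. For H2O2, 3 members had an unadjusted p under 0.05, namely BBC3 (0.77 (95 % interval 0.16 to 1.38)), BCL2 (-0.62 (95 % interval -1.14 to -0.11)) and BCL2L1 (0.49 (95 % interval 0.02 to 0.95)), against 5.76 % of all genes. Blocked by replicate within each cell line, these 3 passed the adjusted p limit (0.75 for BBC3, -0.63 for BCL2 and 0.46 for BCL2L1), where 6.91 % of all genes did, while the block by replicate number alone called no member (1.18 % of all genes). For NACET no member had an unadjusted p under 0.05, where 1.63 % of all genes did, and the largest value was that of BMF, 0.51 (95 % interval -0.05 to 1.08).

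Around the members, 63 further genes of the pathway were listed in 6 groups, of which 53 or 54 were tested in a pair of groups. H2O2 made 8 of 54 DEGs in control cells (6 higher, 2 lower), against 6.33 % of all genes, and 11 of 54 in NRF2 ΔC cells (8 higher, 3 lower), against 9.81 %. NACET made 1 of 53 and 0 of 54 DEGs, where 2.75 % and 1.39 % of all genes were, and in the latter 16 had an unadjusted p under 0.05, against 18.6 % of all genes. Of the 8 genes tested in the death receptor arm, 3 rose with H2O2 in either line, the receptors FAS (0.71 for control and 1.25 for NRF2 ΔC), TNFRSF10A (0.99 and 1.38) and TNFRSF10B (0.62 and 1.06). BNIP3 (-1.48 and -1.36) and BNIP3L (-1.03 and -1.25), family relatives that act in mitophagy, fell with H2O2 in either line. HRK, another BH3-only gene, rose with H2O2 in NRF2 ΔC cells (0.79) and was lower in untreated NRF2 ΔC than in untreated control cells (-1.33).

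Among transcription factors known to drive members, the stress factors ATF3 (1.61 and 2.74) and ATF4 (1.12 and 1.67) rose with H2O2 in either line, and DDIT3 (CHOP) in NRF2 ΔC cells (1.91). ATF4 was also the 1 listed gene raised by NACET in control cells, at 0.65 (SE 0.13, adjusted p = 0.0434), close to both limits. Calls of the listed pathway genes, unlike those of members, were not checked with other settings or without single libraries. With H2O2, ATF3 (1.03) and DDIT3 (1.31) were higher in NRF2 ΔC than in control cells. FBXW7, a ubiquitin ligase subunit that targets MCL1, rose with H2O2 in either line (0.64 and 0.79). The caspase inhibitor family member BIRC5 fell with H2O2 in NRF2 ΔC cells (-1.32). Of the apoptosome and caspase genes, none of the 10 tested in control or 11 in NRF2 ΔC cells was a DEG with H2O2 or NACET against untreated cells. In these 4 comparisons edgeR gave 2 to 4 of them an unadjusted p under 0.05, where 18.6 to 30.7 % of all genes had one. With H2O2 in control cells 1 of the 10 was higher, past the adjusted p limit and under the fold limit. Of all genes, 13.2 % were past the adjusted p limit there.

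**Figure D4:**
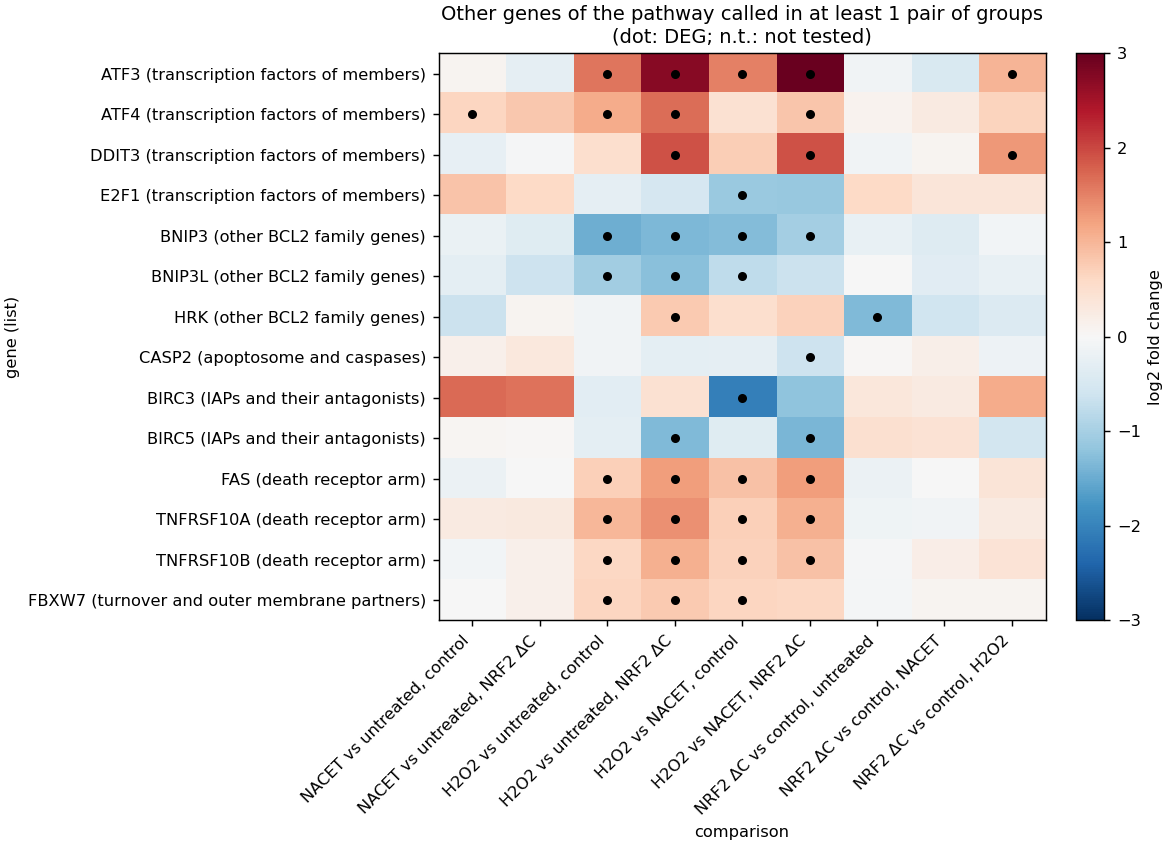
Log2 fold change (colour) of the listed pathway genes that were DEGs in at least 1 of the 9 pairs of groups, with genes in rows and comparisons in columns. Dots mark DEGs. FAS, TNFRSF10A and TNFRSF10B carry dots in all 4 columns that hold H2O2-treated against other cells of the same line.

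Across the 18 libraries, log2 levels of BAX and BBC3 had a Pearson correlation of 0.94, those of BCL2L1 and BAX 0.91, of BCL2L1 and BBC3 0.88 and of PMAIP1 and BID 0.88. BCL2 and BAK1 had the lowest value among the 45 pairs, -0.71. These describe libraries that share 6 groups, and the group differences above are part of them. In each class the member with the largest change was set against 12847 genes. BBC3 was most like MGRN1 (0.97), FDXR (0.97) and CARS (0.96), BAX most like ISCU (0.97), CD2BP2 (0.96) and ARFGAP2 (0.96), and BCL2 most like PIF1 (0.93), CENPA (0.91) and FBXO43 (0.90). PIF1 averaged 1.34 ± 0.785 CPM in H2O2-treated NRF2 ΔC cells and 8.29 to 12.9 CPM in the other groups. FDXR averaged 297 ± 77.3 CPM there, against 80.4 ± 2.59 in untreated and 42.2 ± 3.26 in NACET-treated NRF2 ΔC cells, the same order as BBC3.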

How the data were processed

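The authors mapped single-end TruSeq reads to hg19 with TopHat 2.1.0, counted them per gene symbol with HTSeq-count 0.11.2 without regard to strand, and removed ribosomal RNA genes. They deposited these raw counts for 23411 symbols in each library, plus 5 lines of summary totals, which were left out. Reads on genes made up 72.1 to 74.2 % of each file's total. The annotation is not given in the sources used here. Reads mapped to several places or to overlapping genes were not counted.

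Groups and replicate numbers came from the labels. The 10 members were taken by symbol. The members and gene lists were chosen with earlier results of these data known. The 9 pairs of groups were fitted separately, on 6 libraries each, with edgeR 4.0.16 (R 4.3.3). Low counts were filtered with filterByExpr, normalization was TMM, and quasi-likelihood p-values were adjusted over all genes tested by the Benjamini-Hochberg method. Interactions were fitted over 12 libraries and called on the adjusted p alone. All members passed the filter in every comparison. CPM were computed from the deposited counts with TMM over 18 libraries. Summed over genes, replicates of a group differed by more than counting error. All members are named, and of the pathway lists at most the 3 DEGs with the largest change per list and comparison. Likeness used genes of at least 1 CPM on average.

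Same-numbered libraries deviated together within a line (18 correlations, 0.47 to 0.89) and those of replicates 1 and 3 also between lines (6 of 9 correlations over 0.1), but not those of replicate 2 (-0.27 to -0.05), so the block was used as pairing within lines. What the numbers mark is not stated in the labels. Alternatives were DESeq2 1.42.0, other normalizations and filters, 1 fit of all 18 libraries, the replicate block, other fold limits and leaving out each library. The tests were tried on simulated counts. One promoter motif that was searched is not reported here. Gene positions and lengths came from GENCODE lifted to hg19.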

Additional observations from a re-analysis of the deposited data

How the results depend on the processing

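Summed over genes, the spread of replicates was more than counting error. For single members, some of which had few reads, the spread was not compared with counting error. Of 970 member values under alternatives, 37 changed their call (14 lost, 23 gained) and 24 changed sign, none of them a DEG and none above 0.028 in size. A log2 fold limit of 1 left 2 members with NACET in control cells (1.14 % of all genes), where BBC3 (-0.95) was lost. It left 2 with H2O2 in control cells (2.06 %) and 3 with H2O2 in NRF2 ΔC cells (4.7 %). For H2O2 against NACET it left 1 in control (1.56 %) and 1 in NRF2 ΔC cells (4.3 %). Between the lines it left 0 untreated (2.92 %) and 1 with H2O2 (3.84 %). With DESeq2 2 members were called for NACET in NRF2 ΔC cells (3.14 %) and 2 between the lines with NACET (4.49 %). In 1 fit of all 18 libraries 2 were called for NACET in NRF2 ΔC cells (4.53 %). With the replicate block 3 were called for NACET in NRF2 ΔC cells, where 8.82 % of all genes were, against 1.39 % without it. Blocked within each cell line, 3 were called for the H2O2 interaction (6.91 %). The block changed no other member call than those given beside the results. Between the lines, same-numbered libraries deviated together for replicates 1 and 3 but not for replicate 2. The block there changed no member call.

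Without 1 library in turn, the number of members called ran from 0 to 3 for NACET in control cells (0.223 to 2.43 % of all genes). For H2O2 in control cells it ran from 1 to 4 (2.09 to 7.57 %). In NRF2 ΔC cells it was 0 to 0 for NACET (0 to 3.38 %) and 2 to 8 for H2O2 (2 to 18.8 %). For H2O2 against NACET it was 1 to 2 (1.2 to 4.28 %) in control and 1 to 4 (1.87 to 11.7 %) in NRF2 ΔC cells. Between the lines it was 0 to 1 untreated (1.88 to 6.49 %), 1 to 2 with NACET (2.3 to 6.66 %) and 0 to 4 with H2O2 (2.91 to 17.6 %). The interactions had 0 to 0 for NACET (0.014 to 0.0562 %) and for H2O2 (0 to 0.0776 %). DEGs over all genes ranged from 31 (without NACET-treated control replicate 2) to 1026 (replicate block) for NACET in control cells, 282 to 1809 for H2O2 in control cells, 0 to 1195 for NACET and 275 to 2582 for H2O2 in NRF2 ΔC cells, 164 to 1019 and 257 to 2092 for H2O2 against NACET, 261 to 901, 320 to 1018 and 400 to 2416 between the lines, and 2 to 126 and 0 to 967 for the interactions. The highest H2O2 counts in NRF2 ΔC cells and between the lines came without H2O2-treated NRF2 ΔC replicate 1.

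With upper-quartile normalization the sign changed to -0.0086 for BCL2 in H2O2 in control cells, -9.2e-05 for MCL1 in H2O2 in control cells, -0.0056 for MCL1 in H2O2 in NRF2 ΔC cells, 0.0031 for BAX in the NACET interaction and -0.0067 for MCL1 in the H2O2 interaction. With DESeq2 the sign changed to 0.0014 for BID in H2O2 against NACET in control cells, 0.011 for BID in the lines untreated, 0.0023 for BAX in the NACET interaction and -0.0079 for MCL1 in the H2O2 interaction. With RLE normalization the sign changed to 0.0018 for BID in H2O2 against NACET in control cells, 0.0094 for BID in the lines untreated, 0.0034 for BAX in the NACET interaction and -0.0044 for MCL1 in the H2O2 interaction. With 1 fit of all 18 libraries the sign changed to 0.015 for BID in H2O2 against NACET in control cells, 0.010 for MCL1 in H2O2 against NACET in NRF2 ΔC cells, 0.017 for BCL2L1 in the lines with NACET, 0.028 for BAX in the NACET interaction and 0.00043 for BAK1 in the NACET interaction. With no filter on low counts the sign changed to 0.010 for BID in the lines untreated and 0.011 for BAX in the NACET interaction. With the replicate block the sign changed to 0.0043 for BAX in the NACET interaction and -0.0015 for MCL1 in the H2O2 interaction. With the replicate block within each cell line the sign changed to 0.0049 for BAX in the NACET interaction and -0.0043 for MCL1 in the H2O2 interaction. Without 1 library in turn, 22 values crossed 0, with ranges for NACET in control cells BCL2 -0.13 to 0.0099, for H2O2 in control cells BCL2 -0.0093 to 0.075, for NACET in NRF2 ΔC cells MCL1 -0.040 to 0.080, for H2O2 in NRF2 ΔC cells MCL1 -0.067 to 0.098. The other ranges were for H2O2 against NACET in control cells PMAIP1 -0.11 to 0.12, BID -0.048 to 0.067, BMF -0.034 to 0.37, for H2O2 against NACET in NRF2 ΔC cells MCL1 -0.098 to 0.070, for the lines untreated BCL2L11 -0.048 to 0.19, PMAIP1 -0.10 to 0.16, BID -0.073 to 0.098, for the lines with NACET BCL2L1 -0.062 to 0.031, PMAIP1 -0.31 to 0.0036, then for the lines with H2O2 MCL1 -0.021 to 0.14, BCL2L11 -0.17 to 0.056, for the NACET interaction BAX -0.099 to 0.12, BAK1 -0.075 to 0.0096, BCL2L11 -0.064 to 0.16, for the H2O2 interaction MCL1 -0.089 to 0.075, BCL2L11 -0.22 to 0.039, PMAIP1 -0.0017 to 0.75, BMF -0.30 to 0.081.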
